A study of Mus musculus with 8 samples.

Results

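Sodium-coupled transporters of the SLC5 family carry sugars, monocarboxylates such as lactate, inositol and vitamins into cells with the inward sodium gradient. Their expression is described here in the kidney of NZBWF1 mice, a cross of New Zealand Black with New Zealand White mice that develops a lupus-like nephritis with age. The set holds 8 genes, of 19505 genes with a named probe: the SLC5 members Slc5a1, Slc5a2, Slc5a6, Slc5a8, Slc5a10, Slc5a11 and Slc5a12, and Slc2a2, through which glucose leaves the tubule cell. They were chosen by gene symbol, and each had 1 probe. Kidney total RNA of 4 mice aged 28 weeks (replicates 6 to 9) and of 4 mice aged 8 weeks (replicates 1 to 4) was hybridised to Clariom S Mouse arrays of 1 colour, with an array for each mouse. All 8 mice were NZBWF1 without any treatment named in the labels, and with no other strain in the comparison, age and stage of disease cannot be told apart. Values are taken as log2 expression values after robust multi-array averaging (RMA), a method that subtracts background, equalises the arrays and combines a transcript's probes into 1 value. Differences are 28 weeks minus 8 weeks, and a gene was called changed at an adjusted p below 0.05 (limma, Benjamini-Hochberg adjustment over all 22206 probes).

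In the proximal tubule, glucose enters across the apical membrane with sodium, mostly through SGLT2 (Slc5a2) in the early segments and then through SGLT1 (Slc5a1) in the late segment, and leaves across the basolateral membrane through GLUT2 (Slc2a2). Filtered lactate and other monocarboxylates are taken up by SMCT2 (Slc5a12) early and by SMCT1 (Slc5a8) late in the same tubule. The multivitamin transporter SMVT (Slc5a6), which is found in many tissues, carries biotin, pantothenate and lipoate.

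The arrays carried the transcripts of a kidney. The thick ascending limb gene Umod lay between 18.31 and 18.72 on the 8 arrays and the proximal tubule receptor gene Lrp2 between 17.74 and 18.25. The mice of 28 weeks were not alike. The log2 of the summed linear values of 10 measured leukocyte markers reached 14.73, 13.68 and 13.32 in 28-week replicates 6, 8 and 9 but 11.52 in 28-week replicate 7, against 10.27 to 11.31 in the 8-week mice. All 10 of these markers had a positive difference and none was called, and no value on the arrays was 0, the lowest being 2.31. The summed level of 11 proximal tubule markers was 20.58 to 20.87 at 28 weeks and 20.90 to 21.05 at 8 weeks, with all 11 differences negative and none called. In whole kidney, fewer cells of a type and less RNA per cell cannot be told apart. With 4 arrays at each age, the number of arrays limits how precise these values are.

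Among the 8 transporter genes, Slc5a6 fell at 28 weeks, and it was the 1 of 8 called; over all probes 0.522% were called lower and 0.446% higher. All 8 differences were negative, with a median of -0.65 where the median of all probes was -0.01. In Slc5a6, Slc5a2, Slc5a8 and Slc5a10 every 28-week mouse lay below every 8-week mouse, a separation that 4.33% of all probes showed in that direction. At an unadjusted p below 0.05, 5 of 8 were lower (6.63% of all probes). Because the genes were chosen with earlier results of these data known, these counts describe the set and test nothing about it.

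**Figure D1:**
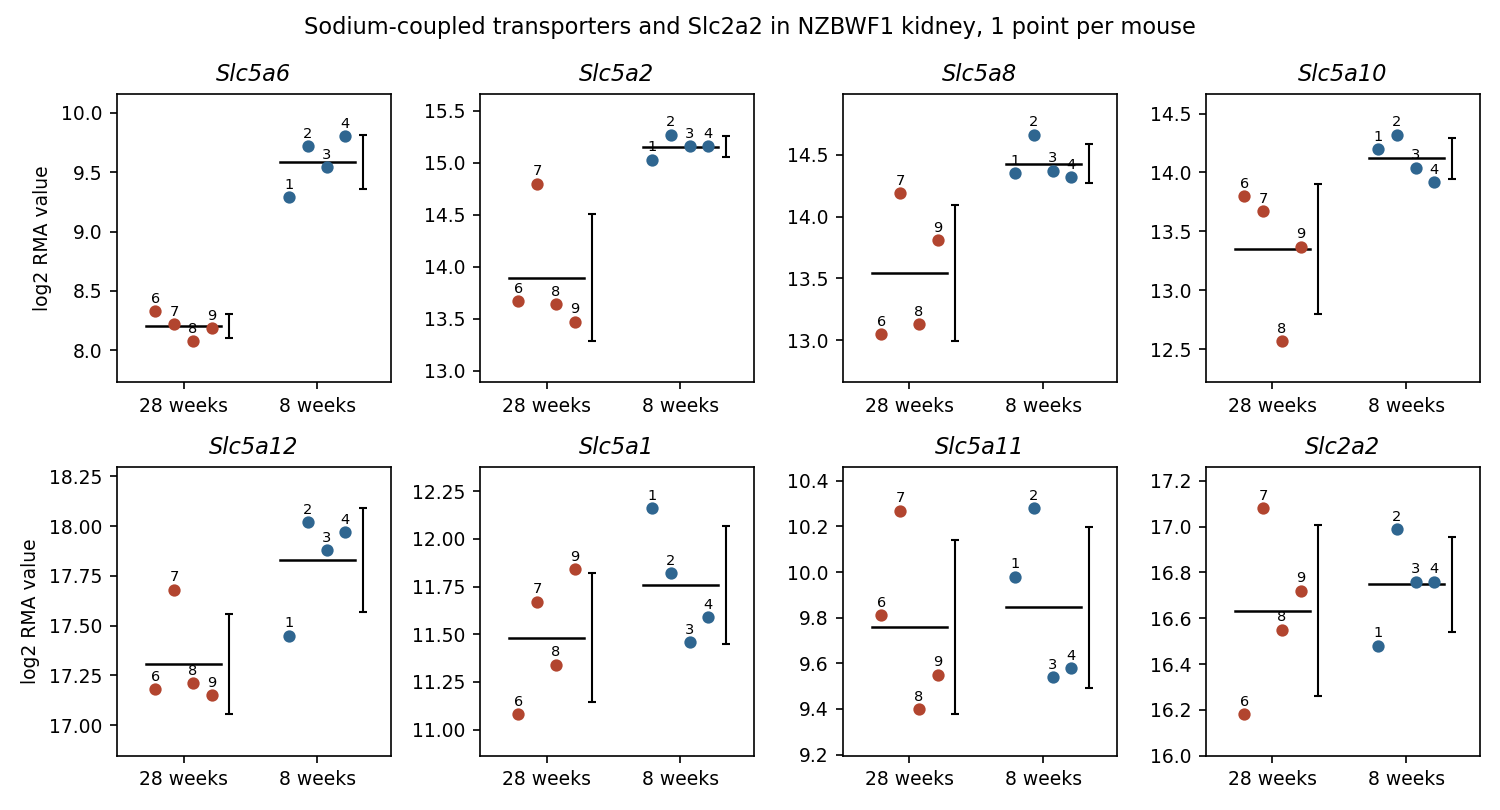
Log2 RMA value of each of the 8 transporter genes (vertical axis, a separate range in each panel) in each mouse at 28 weeks (left, red) and at 8 weeks (right, blue), with the replicate number above each point, a line at the mean and a bar of 1 SD (n = 4 each). The 28-week values of Slc5a6 lie between 8.08 and 8.33, below all 8-week values, while those of Slc2a2 and Slc5a11 overlap the 8-week values.

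The vitamin transporter gene Slc5a6 (probe TC0500002170.mm.2) measured 8.33, 8.22, 8.08 and 8.19 in 28-week replicates 6 to 9, against 9.29, 9.72, 9.54 and 9.80 in 8-week replicates 1 to 4. The lowest 8-week mouse thus stood well above the highest 28-week mouse, and the spread at 28 weeks was the smallest of the 8 genes (SD 0.10 at 28 weeks and 0.23 at 8 weeks, n = 4 each). The difference was -1.38 (95% interval -1.72 to -1.05), a 2.61-fold lower level, at an adjusted p of 0.00653, the 11th smallest p of all probes. Slc5a6 was as low in 28-week replicate 7, whose leukocyte markers lay nearest to the 8-week mice, as in the other 28-week mice, and without that replicate the difference was -1.39. With the arrays centred on the proximal tubule markers it was -1.09 (adjusted p = 0.0172), so Slc5a6 was also lower relative to those markers. That centring moved the median of all probes to 0.29, with 817 higher and 95 lower calls. The part of cell composition in the difference of Slc5a6 was not tested. The call held when each of the 8 arrays was left out in turn, at adjusted p from 0.00173 to 0.0435. In an unmoderated test with unequal variances, which called 0 of all probes after adjustment, the adjusted p of Slc5a6 was 0.257.

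Slc5a6 and the gene Atraid are annotated head to head on opposite strands of chromosome 5, with a distance of 78 bases between a listed start of Slc5a6 and the start of Atraid. Atraid, which was chosen for this position after its values were seen, measured 13.48, 13.44, 13.35 and 13.10 in 28-week replicates 6 to 9, against 14.26, 13.99, 13.90 and 14.06 in 8-week replicates 1 to 4. The groups did not overlap, and the difference of -0.71 missed the threshold (adjusted p = 0.0574). The annotated spans of these neighbours overlap, and how far their probes share signal was not tested.

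The promoters of Slc5a6 and of 3 other members are shown because the starts of these genes differ in base composition. Sequences are from RefSeq (GRCm38.p6), where 6 of the 8 genes were matched in the table used, and those of Slc5a2 and Slc5a12 are not shown here. Capitals mark the dinucleotide CG, which reads the same on both strands. For Slc5a6 (chr5:31048563-31048592, minus strand) only the 30 bases before the listed start are shown, for Slc5a8 (chr10:88885742-88885991, plus strand) 250 bases, for Slc5a10 (chr11:61720818-61721049, minus strand) 232 bases that end 18 bases before the listed start, and for Slc2a2 (chr3:28697653-28697902, plus strand) 250 bases.
Slc5a6: tgaggCGaggcttagcttccaaatcctgtc
Slc5a8: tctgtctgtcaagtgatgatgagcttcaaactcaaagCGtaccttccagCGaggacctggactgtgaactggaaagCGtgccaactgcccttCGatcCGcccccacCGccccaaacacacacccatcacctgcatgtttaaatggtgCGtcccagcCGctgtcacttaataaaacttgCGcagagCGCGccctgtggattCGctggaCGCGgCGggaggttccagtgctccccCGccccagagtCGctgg
Slc5a10: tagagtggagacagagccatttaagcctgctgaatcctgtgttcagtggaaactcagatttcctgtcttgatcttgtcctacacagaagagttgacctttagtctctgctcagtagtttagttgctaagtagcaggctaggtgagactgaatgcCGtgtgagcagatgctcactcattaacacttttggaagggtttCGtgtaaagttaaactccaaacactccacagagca
Slc2a2: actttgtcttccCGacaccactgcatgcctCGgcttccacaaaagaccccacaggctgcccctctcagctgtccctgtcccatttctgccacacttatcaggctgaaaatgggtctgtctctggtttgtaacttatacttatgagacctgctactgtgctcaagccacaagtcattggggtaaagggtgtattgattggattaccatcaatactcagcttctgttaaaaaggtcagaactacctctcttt

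Counted over the 250 bases before the start, Slc5a6 held 20 CG at this start, and 17.9% of 32851 promoters hold as many or more. Slc5a8 held 17, Slc5a1 6, Slc5a10 3, Slc5a11 2 and Slc2a2 2, where the median promoter has 6. The 30 bases shown for Slc5a6 hold only 1 of its 20 CG, so its count rests mostly on bases not shown. The core GTTAAT of the site of HNF1, a tubule and liver factor (either strand), was found in 6.43% of all promoters and, among these genes, before 1 start of Slc5a10, at position -75 from the start. The E-box CACGTG, which clock factors bind and which reads the same on both strands, was found in 6.02% of all promoters and before Slc5a1 at position -143. The D-box TTATGTAA (either strand, 0.819% of all promoters) was in none of the windows searched. The E-box holds a CG itself and the other motifs none, and such matches describe letters, not binding.

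For the apical glucose transporter gene Slc5a2 (probe TC0700001880.mm.2), which takes up most of the filtered glucose, the 28-week replicates 6 to 9 measured 13.67, 14.80, 13.64 and 13.47, against 15.03, 15.27, 15.16 and 15.16 in 8-week replicates 1 to 4. The groups did not overlap, but 28-week replicate 7 lay close to the 8-week mice and the other 3 lay far below them. The difference was -1.26 (95% interval -1.85 to -0.67), or 2.39-fold lower, and missed the threshold at an adjusted p of 0.0606. Without 28-week replicate 7 the difference was -1.56 and passed it (adjusted p = 0.000418), in a fit that called 1.95% of all probes lower. Relative to the proximal tubule markers the difference was -0.96 (adjusted p = 0.0441).

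The late-segment glucose transporter gene Slc5a1 (probe TC0500000353.mm.2) measured 11.08, 11.67, 11.34 and 11.84 in 28-week replicates 6 to 9, against 12.16, 11.82, 11.46 and 11.59 in 8-week replicates 1 to 4. The groups overlapped between 11.46 and 11.84, at a difference of -0.28 (95% interval -0.74 to 0.19, adjusted p = 0.622). The exit transporter gene Slc2a2 (probe TC0300000180.mm.2) measured 16.18, 17.08, 16.55 and 16.72 in 28-week replicates 6 to 9, against 16.48, 16.99, 16.76 and 16.76 in 8-week replicates 1 to 4. Both the lowest and the highest value of Slc2a2 belonged to 28-week mice, and its difference was -0.12 (95% interval -0.56 to 0.33, adjusted p = 0.866). For both genes the direction is not settled, since relative to the proximal tubule markers the differences were 0.021 for Slc5a1 and 0.18 for Slc2a2.

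**Figure D2:**
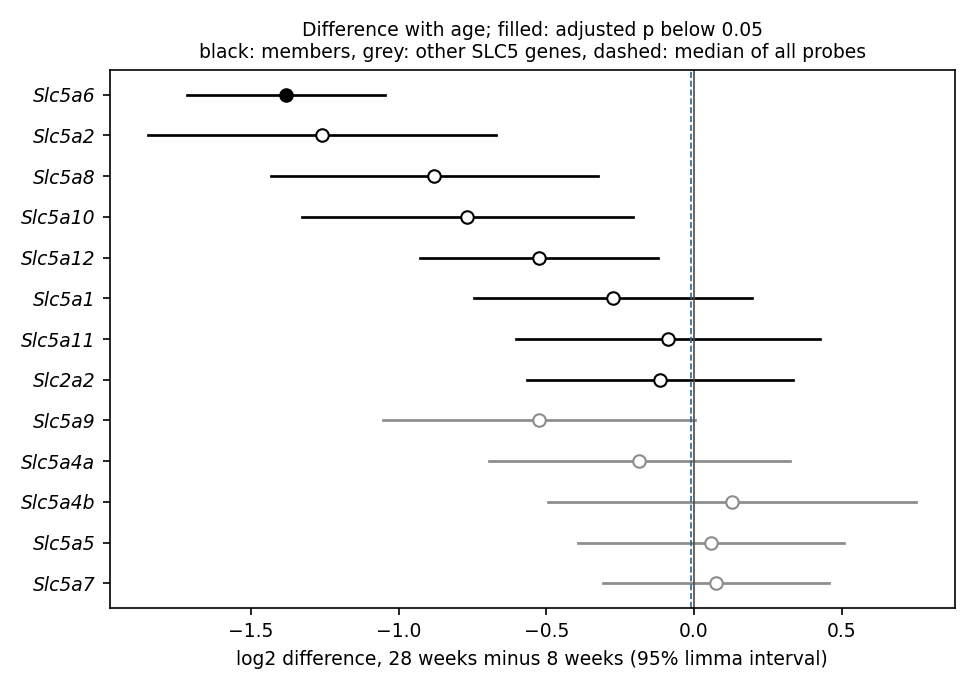
Log2 difference, 28 weeks minus 8 weeks (horizontal axis), with its 95% limma interval for the 8 transporter genes (black) and the 5 other measured SLC5 genes (grey). Slc5a6 alone has a filled point, for an adjusted p below 0.05, and the dashed line is the median of all probes, -0.01.

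The mannose and fructose transporter gene Slc5a10 (SGLT5, probe TC1100002919.mm.2) measured 13.80, 13.67, 12.57 and 13.37 in 28-week replicates 6 to 9, against 14.20, 14.32, 14.04 and 13.92 in 8-week replicates 1 to 4. The groups did not overlap by a narrow margin, and replicate 8 rather than replicate 7 stood apart at 28 weeks. The difference was -0.77 (95% interval -1.33 to -0.21, adjusted p = 0.172), and relative to the proximal tubule markers it was -0.47 (adjusted p = 0.223). The inositol transporter gene Slc5a11 (SMIT2, probe TC0700001771.mm.2) measured 9.81, 10.27, 9.40 and 9.55 in 28-week replicates 6 to 9, against 9.98, 10.28, 9.54 and 9.58 in 8-week replicates 1 to 4. The groups overlapped almost fully, at a difference of -0.09 (95% interval -0.60 to 0.43, adjusted p = 0.914), and it was 0.21 relative to the proximal tubule markers.

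Of the lactate transporter genes, Slc5a8 (SMCT1, probe TC1000001085.mm.2), the high-affinity form, measured 13.05, 14.19, 13.13 and 13.81 in 28-week replicates 6 to 9, against 14.35, 14.66, 14.37 and 14.32 in 8-week replicates 1 to 4. Every 28-week mouse was lower, with replicate 7 just below the 8-week range. The difference was -0.88 (95% interval -1.43 to -0.33), 1.84-fold lower, at an adjusted p of 0.123, and without 28-week replicate 7 it was -1.10 and passed the threshold (adjusted p = 0.0159). Relative to the proximal tubule markers the difference of Slc5a8 was -0.58 (adjusted p = 0.135). The low-affinity form Slc5a12 (SMCT2, probe TC0200001634.mm.2) measured 17.18, 17.68, 17.21 and 17.15 in 28-week replicates 6 to 9, against 17.45, 18.02, 17.88 and 17.97 in 8-week replicates 1 to 4. Here 28-week replicate 7 lay above 8-week replicate 1, so the groups overlapped, and the difference was -0.53 (95% interval -0.93 to -0.12, adjusted p = 0.193). Relative to the proximal tubule markers the difference of Slc5a12 was -0.23 (adjusted p = 0.363). The probe of Slc5a12 stood at the 99.7th percentile of brightness of all probes. With both 28-week replicate 7 and 8-week replicate 1 left out, Slc5a2, Slc5a6, Slc5a8 and Slc5a12 were called, in a fit that called 2.04% of all probes lower.

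**Figure D3:**
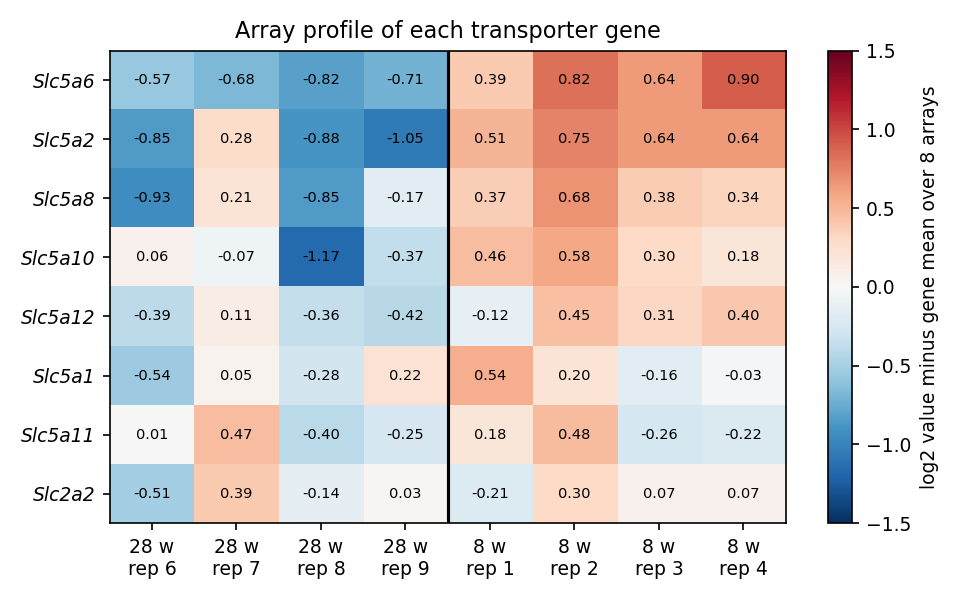
Log2 value minus the mean of the gene over the 8 arrays (colour and number in each cell) for the 8 transporter genes (rows) in 28-week replicates 6 to 9 (left of the line) and 8-week replicates 1 to 4 (right). Slc5a6 is negative in all 4 mice of 28 weeks, from -0.57 to -0.82, whereas in 28-week replicate 7 Slc5a2, Slc5a8 and Slc5a12 are positive.

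The mice of 28 weeks thus did not line up in the same order for every gene. Replicate 7 was the highest of the 28-week mice in 5 of 8 genes (Slc5a2, Slc5a8, Slc5a11, Slc5a12 and Slc2a2) and the second highest in Slc5a1, Slc5a6 and Slc5a10. It was also the 28-week mouse with the lowest leukocyte and the highest proximal tubule marker level, and the part of either in these values was not tested. As a measure of likeness, the root mean square difference between array profiles, each centred on its own mean over the 8 arrays, was taken. It was smallest for Slc5a12 and Slc2a2 (0.26 log2 units) and largest for Slc5a6 and Slc5a11 (0.73).

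The 5 genes of 9968 compared whose array profile lay nearest to that of Slc5a6 were Nudt19, Nr1h4, Pcdh7, Myo5a and Il15, at 0.20, 0.21, 0.22, 0.23 and 0.23 log2 units over 8 arrays. Nudt19 encodes a peroxisomal hydrolase of coenzyme A, Nr1h4 the bile acid receptor FXR, Pcdh7 a protocadherin, Myo5a an unconventional myosin and Il15 a cytokine. Nudt19 measured 15.62, 15.45, 15.21 and 15.52 in 28-week replicates 6 to 9, against 16.05, 16.51, 16.68 and 17.02 in 8-week replicates 1 to 4. As with Slc5a6, replicate 7 was no exception among the 28-week mice, and the difference was -1.115. Replicate 7 also lay among the other 28-week mice in Nr1h4, Pcdh7 and Myo5a, but in Il15 it stood above them (9.97, others 9.19 to 9.38). The differences of the other 4 were between -1.04 and -1.27, and Myo5a was not called (adjusted p = 0.0577). Since all 5 were picked for their profile, these values are a description.

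Fixed pairs, 3 in number, were compared as within-array log2 ratios, which show unequal change and say nothing about one level against another. The ratio of apical to exit glucose transporter, Slc5a2 minus Slc2a2, was -2.51, -2.28, -2.91 and -3.25 in 28-week replicates 6 to 9, against -1.45, -1.72, -1.60 and -1.60 in 8-week replicates 1 to 4. All 4 mice of 28 weeks, replicate 7 included, lay below the 8-week range. The change was -1.145, or 2.21-fold (exact two-sided permutation test over 70 arrangements, p = 0.0286, the smallest this design can give, and adjusted p = 0.0857 over the 3 ratios). The adjusted value misses 0.05.

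The ratio of early to late glucose transporter, Slc5a2 minus Slc5a1, was 2.59, 3.13, 2.30 and 1.63 in 28-week replicates 6 to 9, against 2.87, 3.45, 3.70 and 3.57 in 8-week replicates 1 to 4. The groups overlapped through 28-week replicate 7 and 8-week replicate 1, and the change was -0.985 (exact permutation p = 0.0571, adjusted p = 0.0857). The ratio of the lactate transporters, Slc5a12 minus Slc5a8, was 4.13, 3.49, 4.08 and 3.34 at 28 weeks and 3.10, 3.36, 3.51 and 3.65 at 8 weeks. The groups overlapped, at a change of 0.355 (exact permutation p = 0.257, adjusted p = 0.257).

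**Figure D4:**
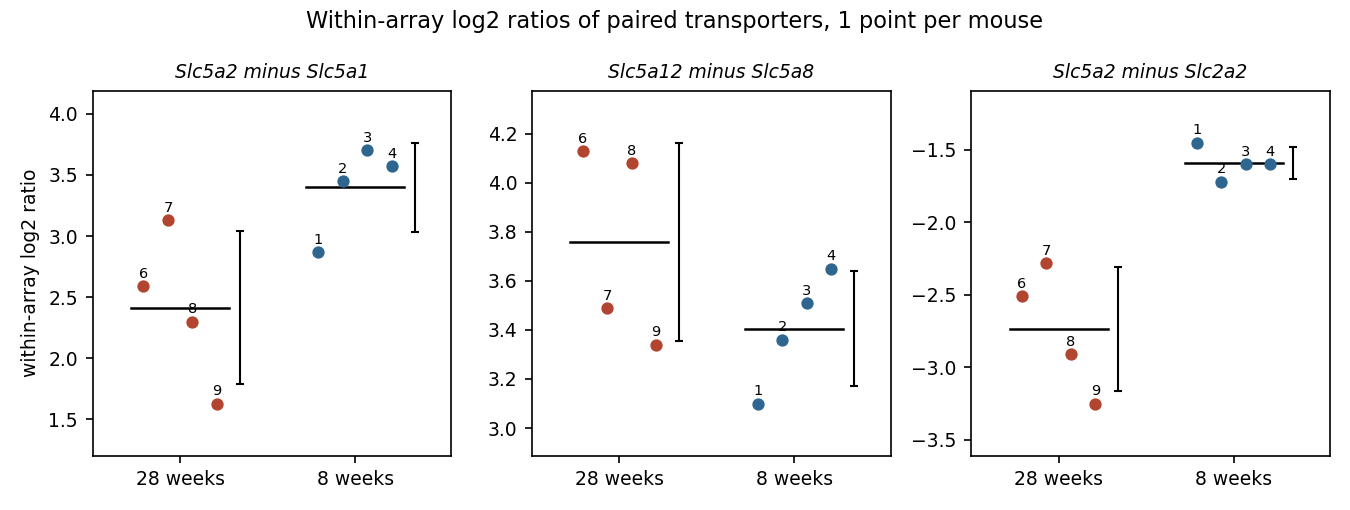
Within-array log2 ratio (vertical axis) of 3 pairs of transporter genes in each mouse at 28 weeks (left, red) and 8 weeks (right, blue), with replicate numbers, a line at the mean and a bar of 1 SD (n = 4 each). The groups do not overlap for Slc5a2 minus Slc2a2, where the 28-week mice lie between -3.25 and -2.28.

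Other genes of the family and of glucose transport had no call. Of the 5 further SLC5 genes measured, none was called and the median difference was 0.06. The mannose transporter gene Slc5a9 measured 8.90, 9.10, 8.47 and 8.67 at 28 weeks and 9.92, 9.42, 8.92 and 8.98 at 8 weeks (difference -0.53, adjusted p = 0.337). Slc5a4a, Slc5a4b, the iodide transporter gene Slc5a5 and the choline transporter gene Slc5a7 had dim probes, with all values between 3.11 and 5.95 and differences from -0.18 to 0.13. None of 10 other facilitative sugar and urate carriers (SLC2) was called. The 2 with the smallest p were the glucose carrier gene Slc2a1 (13.34, 13.02, 12.91 and 13.02 at 28 weeks and 12.98, 11.99, 11.88 and 11.80 at 8 weeks, difference 0.91, adjusted p = 0.117) and the fructose carrier gene Slc2a5 (12.66, 14.07, 12.74 and 12.64 at 28 weeks and 13.78, 14.48, 13.68 and 13.98 at 8 weeks, difference -0.95, adjusted p = 0.184). In Slc2a1 8-week replicate 1 was close to the 28-week mice, and without it the gene was called higher (adjusted p = 0.0216). In Slc2a5 28-week replicate 7 was within the 8-week range, and without it the gene was called lower (adjusted p = 0.0059).

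Around the vitamin transporter, 13 of 16 measured genes of biotin and pantothenate use had a negative difference, with 1 called lower, none called higher and a median of -0.235. Over all probes 11402 of 22206 differences were negative, and so were those of all 11 proximal tubule markers, with a median of -0.31. The called gene was Pcx, which encodes pyruvate carboxylase, a biotin-dependent enzyme of gluconeogenesis. Pcx measured 10.28, 11.06, 10.55 and 10.01 in 28-week replicates 6 to 9, against 12.87, 12.38, 12.64 and 12.57 in 8-week replicates 1 to 4. All 4 mice of 28 weeks were lower by more than the spread of either group, with replicate 7 the highest of them. The difference was -2.14 (95% interval -2.63 to -1.65), a 4.41-fold lower level at an adjusted p of 0.00506, and Pcx stayed past the threshold when each of the 8 arrays was left out in turn. Pcca, a subunit of the biotin-dependent propionyl-CoA carboxylase, named after its values were seen, had a difference of -0.61 with groups that did not overlap (adjusted p = 0.105). None of 9 other renal vitamin transporters was called, with a median of -0.12. The folate receptor gene Folr1 (difference -0.31, adjusted p = 0.303) and the folate transporter gene Slc46a1 (difference -0.44, adjusted p = 0.338) had the smallest p.

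Of 11 measured genes of lactate and ketone body use, 1 was called higher, none lower, and the median difference was -0.175. Slc16a1, the proton-coupled monocarboxylate transporter MCT1, measured 10.31, 8.90, 9.95 and 9.11 in 28-week replicates 6 to 9, against 7.35, 7.59, 7.82 and 7.78 in 8-week replicates 1 to 4. All 28-week mice lay above the 8-week mice, with replicate 7 the nearest to them, while the sodium-coupled carriers Slc5a8 and Slc5a12 had negative differences. The difference of Slc16a1 was 1.93, or 3.82-fold (adjusted p = 0.0259), and the call ended without any single array other than 28-week replicates 6 and 7, at adjusted p of up to 0.0945.

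Among 8 partners and energy-supplying genes of sodium-coupled uptake, 1 was called higher and none lower (median -0.03). Sgk1, a steroid-induced kinase that acts on sodium transporters, measured 13.38, 13.81, 13.27 and 13.09 in 28-week replicates 6 to 9, against 11.73, 12.45, 12.62 and 11.67 in 8-week replicates 1 to 4. It rose by 1.27, or 2.41-fold (adjusted p = 0.0495), and that call ended without any single array other than 28-week replicate 7, at adjusted p of up to 0.131. Pdzk1ip1, which encodes the SGLT2 partner MAP17 and was named after its values were seen, had a difference of -0.24 (adjusted p = 0.466).

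Of 7 measured transcription factors of proximal tubule transporter genes, 1 was called lower and none higher (median -0.38). Nr1h4 measured 11.81, 11.83, 11.59 and 11.90 in 28-week replicates 6 to 9, against 12.50, 13.17, 12.78 and 12.85 in 8-week replicates 1 to 4. All 28-week mice lay below the 8-week mice, at a difference of -1.04 (adjusted p = 0.0307). The call ended without any single array other than 28-week replicate 7 and 8-week replicate 1, at adjusted p of up to 0.0991. Hnf4a, a nuclear receptor of proximal tubule identity named after its values were seen, had a difference of -0.38 (adjusted p = 0.356). Of 5 osmolyte and inositol genes none was called. The smallest p belonged to Nfat5, the tonicity-responsive factor (difference 0.63, adjusted p = 0.249), and to the betaine transporter gene Slc6a12 (difference 0.87, adjusted p = 0.261).

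**Figure D5:**
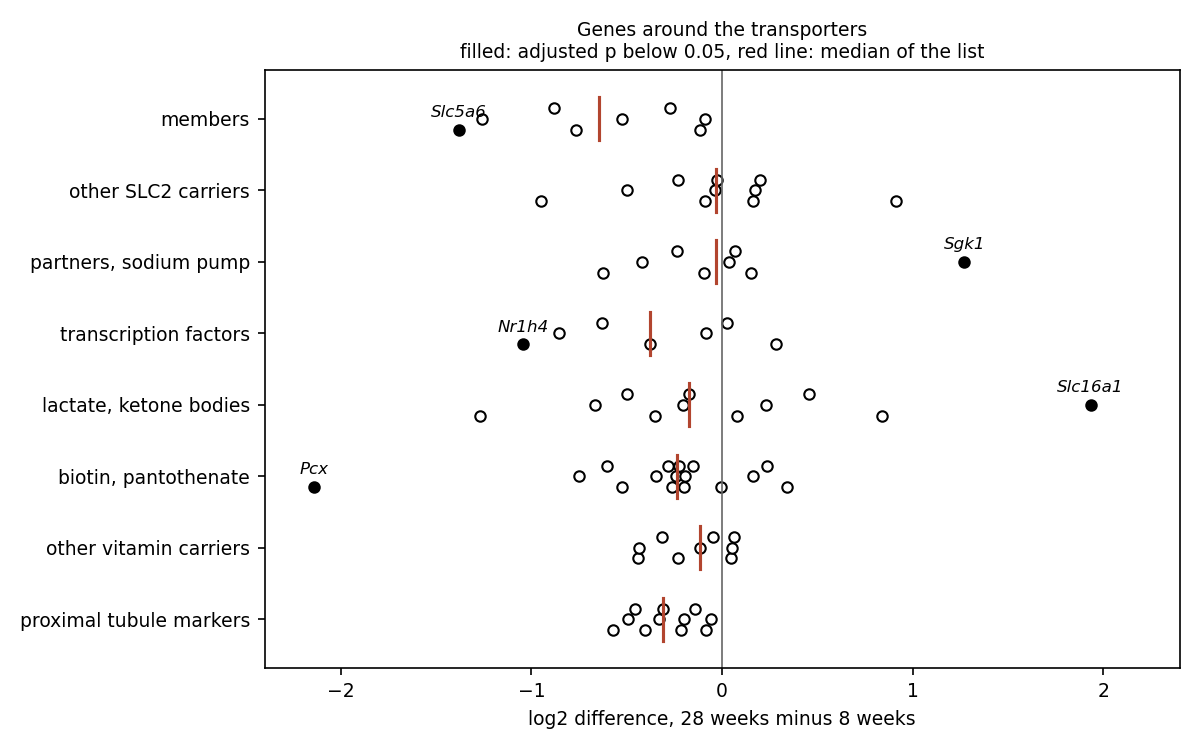
Log2 difference, 28 weeks minus 8 weeks (horizontal axis), of every measured gene in 8 gene lists (rows), with a red line at the median of each list. Filled points, named in the plot, are the 5 genes with an adjusted p below 0.05, from -2.14 for Pcx to 1.93 for Slc16a1.

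Markers of tubule segments were compared as well. Of 9 markers of the early proximal tubule, 8 had negative differences and 1 was called lower (median -0.39), and their summed level was 19.40 to 19.70 at 28 weeks and 19.52 to 19.80 at 8 weeks. Of 9 markers of the late segment, 5 had negative differences and 1 was called lower (median -0.05), with summed levels of 18.0 to 18.33 at 28 weeks and 18.06 to 18.34 at 8 weeks. The summed levels of both lists thus overlapped between the ages. Such sums weigh bright genes most, and the brightest early marker, Slc13a1, was the 1 with a positive difference (0.34). At an unadjusted p below 0.05 (limma), 5 of the 9 early markers were lower (6.63% of all probes). So were 6 of 11 markers of all proximal tubule segments, 2 of 9 late markers (1 was higher) and 5 of 5 distal convoluted tubule markers. The called genes were Slc22a6 in the early list (difference -0.91, adjusted p = 0.0313) and Slc22a30 in the late list (difference -1.80, adjusted p = 0.000795). All 5 markers of the distal convoluted tubule had negative differences, with summed levels of 17.10 to 17.95 at 28 weeks and 18.05 to 18.30 at 8 weeks. Of these 1 was called, Pvalb (difference -2.425, adjusted p = 0.0462). Of 6 markers of the thick ascending limb, 5 had positive differences with none called, and the summed levels were 19.23 to 19.52 at 28 weeks and 18.94 to 19.14 at 8 weeks. Of 9 markers of injured tubule, 8 had positive differences and 2 were called higher (median 0.78). Their summed levels were 17.11, 17.22, 18.59 and 19.00 in 28-week replicates 6 to 9, and 17.06 to 17.35 at 8 weeks. The sums of replicates 6 and 7 thus both lay within the 8-week range, but single markers did not all do so. The called markers were the cell cycle inhibitor gene Cdkn1a (difference 3.58, adjusted p = 0.00147) and the adhesion molecule gene Vcam1 (difference 2.62, adjusted p = 0.0423). In both, replicates 6 and 7 lay above every 8-week mouse (Cdkn1a 11.03 and 9.78 against 6.79 to 7.39, Vcam1 10.17 and 8.01 against 6.75 to 7.44). The bright markers Clu in replicate 6 (16.17) and Havcr1 in replicate 7 (13.62) lay below every 8-week mouse. All 8 markers of fibroblasts and matrix had positive differences with none called (median 0.77), and the summed levels were 12.11 to 14.38 at 28 weeks, lowest in replicate 7, and 11.93 to 13.97 at 8 weeks. The part of these shifts in the transporter values was not tested.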

How the data were processed

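The authors deposited log2 values made with RMA, per the submitters' processing notes, with software, version and settings not given in the sources used here. Reading them as log2 is an assumption, since no source states the base: RMA works in base 2, and the deposited values run from 2.31 to 19.89. Whether the processing shrank or widened folds cannot be told without its settings. RMA flags no probe as undetected, so a dim gene may still be expressed. Per the labels' protocols, Trizol-extracted total RNA was labelled as biotinylated cRNA. No batch or date was in the sources used here, and no 2 arrays held identical values.

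All 22206 probes were tested without a filter, with lmFit and eBayes (limma 3.58.1, R 4.3.3). The platform annotation named 19572 probes, and a RefSeq gene table changed 0 symbols. The brightest probe stood for a gene. Ratios were compared by an exact permutation test. Promoters were read with Python 3.11.15 and pandas 2.3.3, and figures drawn with matplotlib 3.10.9. The code was tested on simulated data.

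The members and the gene lists were chosen with earlier results of these data known. Chosen as named genes were all members, the other SLC5 genes and the 5 genes most like Slc5a6. From each other list they were up to 3 called genes or the 2 with the smallest p. Of those from the marker lists not all are mentioned above, and the collecting duct, podocyte and endothelium markers are not described. Alternatives were other normalisations, dim-probe filters, 1 row per gene, variance models, array weights, thresholds and left-out arrays.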

Additional observations from a re-analysis of the deposited data

Results flagged for a closer look

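In a group of 4 arrays, a value was singled out where its gap to the nearest other value took more of the group's range than the 95% critical value of Dixon's test, which chance gives in about 1 of 20 groups. Of 114 groups of values tested, over the named genes and ratios, 12 met this, 5 in 28-week replicate 7, 5 in 8-week replicate 1 and 2 in 8-week replicate 2. Among the transporters, 28-week replicate 7 was high in Slc5a2 (14.80, with the other 28-week mice at 13.47 to 13.67) and in Slc5a12 (17.68, others 17.15 to 17.21), and 8-week replicate 2 was high in Slc5a8 (14.66, others 14.32 to 14.37). In 28-week replicate 7 the fructose carrier gene Slc2a5 (14.07) and the folate transporter gene Slc46a1 (8.01) were also high, and the adhesion molecule gene Vcam1 (8.01, others 10.17 to 10.44) was low. In 8-week replicate 1 Slc2a1 (12.98), the phosphate transporter gene Slc34a1 (18.57) and the water channel gene Aqp3 (12.17) were high, and Ywhaz (15.11) and the acyl-CoA synthetase gene Acsm2 (17.70) were low. In 8-week replicate 2 the pantetheinase gene Vnn1 (10.80, others 11.30 to 11.39), looked at after its values were seen, was low.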

How the results depend on the processing

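No paired analysis was possible because the ages share no replicate number. The fall of Slc5a6 kept its direction in all 22 alternatives (-1.52 to -1.09) and its call in all but the unmoderated test (0 of 8 transporter genes and 0 of all probes called). Against 1 of 8 genes and 215 probes in the fit reported, 2 genes and 912 probes were called with arrays centred on proximal tubule markers, which moved the median of all probes to 0.29, with 817 higher and 95 lower calls, 2 and 399 without the dimmest 50% of probes, 2 and 399 with trend and robust options, 3 and 873 with array weights, 2 and 689 at an adjusted p below 0.1, and 4 and 1384 with both 28-week replicate 7 and 8-week replicate 1 left out. At an adjusted p below 0.01, 18 probes were called. Centred on ribosomal and reference genes the split was 87 higher and 197 lower, and on array medians 66 and 111, against 99 and 116. Leaving out single arrays gave 1 to 3 of the 8 genes and 25 to 1237 probes, the highest of both without 28-week replicate 7. The sign turned in Slc5a1 (0.021), Slc5a11 (0.21) and Slc2a2 (0.18) relative to proximal tubule markers. With arrays left out, Slc2a2 ranged from -0.35 to 0.036, turning without 28-week replicate 6, and Slc5a11 from -0.26 to 0.058, turning without 28-week replicate 8 (0.032) or 8-week replicate 2. No ratio changed its direction or its side of 0.05 under quantile normalisation or cyclic loess. For 12 further named genes, chosen for these alternatives after seeing the data, no sign turned. Sgk1 lost its call with arrays centred on medians (0.0566) or on ribosomal and reference genes (0.0886) and with both arrays left out (0.0536), and passed in 9 of 20 settings, Atraid in 6, Nr1h4 and Slc16a1 in 13, Pcx in 19, Slc2a1 in 4 and Slc2a5 in 2. Causes were not tested. Each member has 1 row, so another row could not be tried.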
